A study of Xenopus laevis with 16 samples.

Results

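Foxb1.S, cdx1.S and sp5l.S, 3 of the 7531 genes named on a Xenopus laevis array, were followed in explanted animal caps, the ectoderm cut from the top of the blastula. The genes were chosen from results of these same arrays, on their higher signal after injection of foxD5 mRNA, and all probe sets whose platform symbol is one of the 3 names were then taken. That gave 6 of 15491 probe sets: 1 for foxb1.S, 2 for cdx1.S (called the brighter and the dimmer) and 3 for sp5l.S (called the first, the second and the third, from the highest mean level to the lowest). Their identifiers stand above the panels of the plot of signals. Because the injection effect chose the genes, it is described for them with no test, while the effects of Noggin and the difference between cultures are tested.

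Each of 16 arrays read total RNA from 1 pool of 45 to 171 caps, in 4 groups of 4. FoxD5-injected caps came from embryos injected at the 2-cell stage with foxD5 mRNA, 100 pg a cell, and were cut at stage 8 to 9 and cultured to stages labelled 11.5 to 13. Their reference was uninjected sibling caps, for which the labels give no stage. FoxD5-injected caps and uninjected siblings were also cultured in 200 ng/ml Noggin, a secreted protein that binds BMP ligands, to labelled stages 11.5 to 12.5. The labels tie each uninjected pool to 1 injected pool, so that each culture has 4 sibling pairs. In each culture 1 injected pool has no number, and it was paired with the remaining uninjected pool, as number 1.

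No pool received another mRNA, so injection as such and foxD5 cannot be told apart. The labels do not say that pools of 1 group came from separate clutches, and p-values measure only the spread between these pools. The labels name cochlea as a source beside descriptions of animal caps, and 0 of 16 cochlea symbols were measured under the names searched. FoxD5 is now called foxd4l1. Its resident probe sets did not pass the test after injection (foxd4l1.1.S log2 change 0.44, limma adjusted p = 0.579, and foxd4l1.2.L -0.19, adjusted p = 0.575), and whether they read the injected mRNA is not known. In pooled caps, more cells expressing a gene and more RNA per cell cannot be told apart.

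Left alone, cap cells become epidermis, and with BMP signals blocked they become neural tissue of anterior character. FGF, Wnt and retinoic acid signals give neural tissue posterior character. Foxb1 encodes a transcription factor of the forkhead family, present in the early neural plate and later in hindbrain and spinal cord. Cdx1 encodes a caudal-type homeodomain factor, a family that acts in posterior tissue upstream of hox genes. Sp5l encodes a zinc finger factor of the Sp family, whose zebrafish relative is a target of Wnt signals in the posterior embryo. X. laevis is allotetraploid, and the suffixes .L and .S mark the duplicated copies. No probe set has the .L copy of any of the 3 genes as its single symbol. Whether the probes of the .S copies also bind .L transcripts was not tested.

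Foxb1.S, the forkhead gene, had the highest fold of the 3. Without Noggin its deposited signal, an intensity on a linear scale, was 78.1, 86.4, 51.2 and 159 in the foxD5-injected pools 1 to 4, against 3.73, 26.4, 18.0 and 1.78 in their uninjected siblings. In Noggin it was 124, 158, 91.3 and 176 (foxD5-injected) against 24.6, 8.83, 33.1 and 59.0 (uninjected). Within each culture all injected pools lay above all uninjected ones, and every pair moved the same way. The lowest injected signal, pool 3 without Noggin, was below the highest uninjected signal, pool 4 in Noggin. Probe sets of 3 reporter genes that the labels do not name were taken as a measure of unspecific signal. Their medians over the arrays were 10.7, 9.85 and 5.27, and their highest values 31.5, 71.0 and 20.8. All uninjected signals of foxb1.S, and injected pool 3 without Noggin, lay below the highest of these. Changes are given on quantile-normalised log2(signal + 16), a scale that understates changes of low signals. The mean change of foxb1.S over 8 pairs was 1.86 ± 0.24 (SE), 3.63-fold on that scale. It was 1.99 ± 0.34 without Noggin and 1.73 ± 0.34 in Noggin.

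Single pairs of foxb1.S differed widely. Pair 4 without Noggin changed by 3.28 and pair 2 in Noggin by 2.79. In each of these pairs both siblings held the same number of caps, 142 and 136. The smallest changes were 0.89 in pair 3 without Noggin and 1.04 in pair 3 in Noggin. The 3 largest changes, with 2.28 in pair 1 without Noggin as the smallest of them, belong to the pairs in which the uninjected signal was below 9. The uninjected value is subtracted in each change, so a low one enlarges the change by construction.

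Ordered by group mean, foxb1.S was at 137 ± 37.7 in foxD5-injected caps in Noggin, 93.7 ± 46.1 in foxD5-injected caps without it, 31.4 ± 21.0 in uninjected caps in Noggin and 12.5 ± 11.8 in uninjected caps without it (SD, n = 4 arrays each). The upper pair and the lower pair of this order each differ by Noggin, may also differ by clutch and stage, and are tested further on. The neighbours in the middle overlapped, since pool 3 in the injected caps without Noggin lay below pool 4 in the uninjected caps with it.

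**Figure D1:**
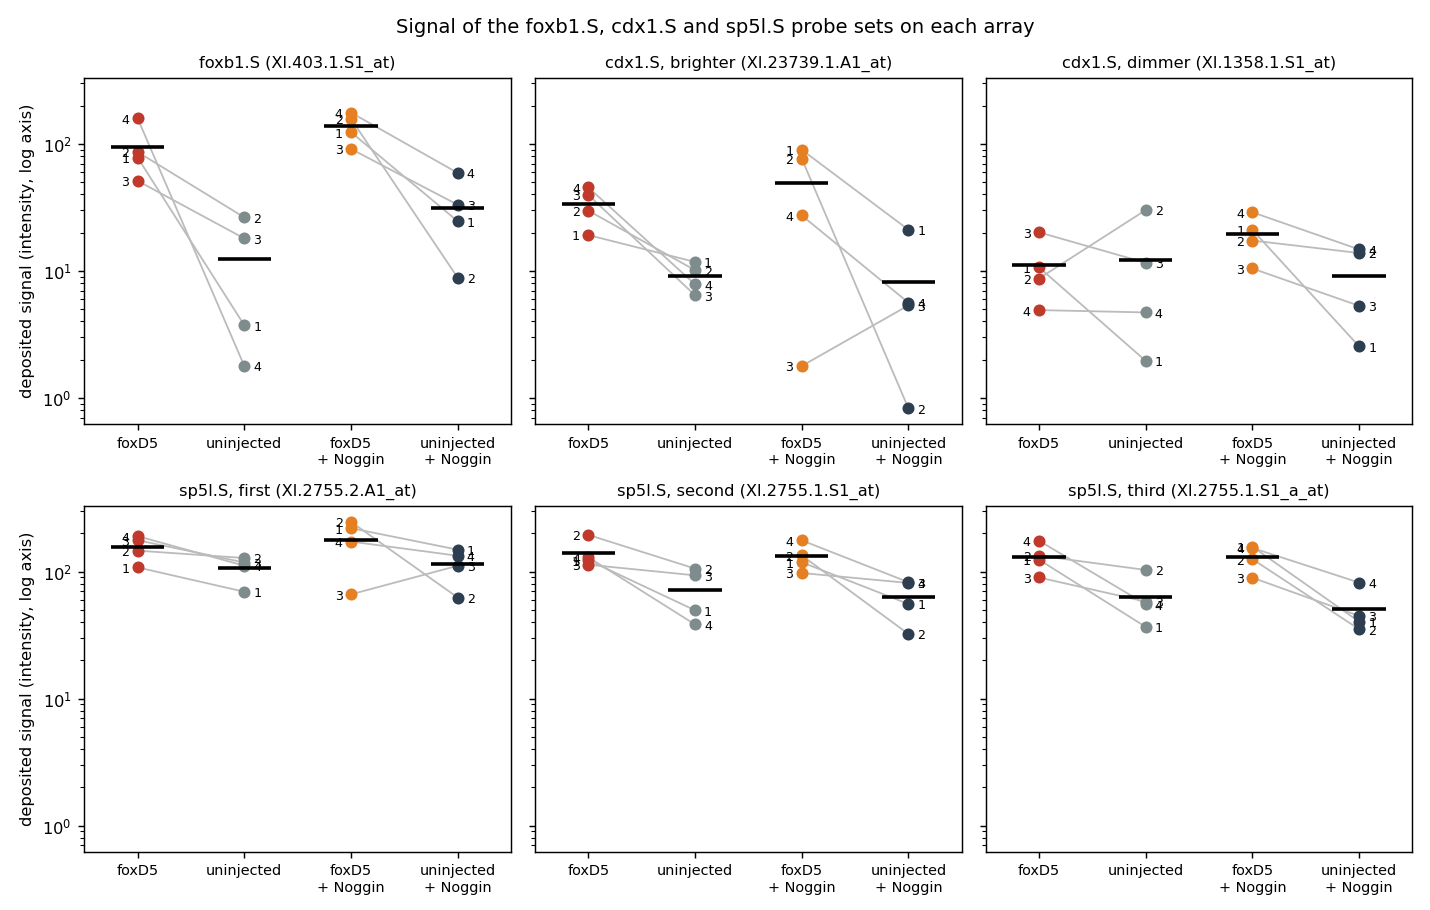
Deposited signal (intensity, log axis) of the 6 probe sets on each array, with grey lines joining siblings, digits giving the replicate number and black bars giving the group mean. For foxb1.S and the second sp5l.S probe set all injected pools lie above all uninjected pools of the same culture, while the dimmer cdx1.S probe set overlaps in both.

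Cdx1.S, the caudal-type gene, was read differently by its pair of probe sets. On the brighter one the signal without Noggin was 19.1, 29.8, 39.7 and 45.4 in foxD5-injected pools 1 to 4, against 11.8, 10.1, 6.43 and 7.84 in uninjected siblings. In Noggin it was 90.0, 76.7, 1.78 and 27.3 (foxD5-injected) against 21.1, 0.827, 5.34 and 5.62 (uninjected). All signals of this probe set without Noggin lay below the 71.0 that a reporter probe set reached. The groups did not overlap without Noggin. In Noggin they overlapped, because injected pool 3 lay among the lowest values of the probe set. The mean change over both cultures was 1.07 ± 0.24, or 2.1-fold, higher in 7 of 8 pairs, with 0.98 ± 0.33 without Noggin and 1.16 ± 0.33 in it. The pairs in Noggin spread from -0.27 in pair 3 to 2.52 in pair 2, and without pair 2 the change in Noggin was 0.71.

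The dimmer cdx1.S probe set had 10.7, 8.71, 20.1 and 4.91 in foxD5-injected pools without Noggin, against 1.96, 30.1, 11.6 and 4.71 in uninjected siblings. In Noggin it had 21.0, 17.3, 10.4 and 28.9 (foxD5-injected) against 2.54, 13.8, 5.30 and 14.8 (uninjected). The groups overlapped in both cultures. Its change was 0.31 ± 0.15 over both cultures, 0.09 ± 0.22 without Noggin and 0.54 ± 0.22 in it. Most of its signals were below the 16 added before the logarithm. Without Noggin the direction of its mean rested on pair 1, since it was -0.13 with that pair left out. Over the 16 arrays the brighter and dimmer probe sets of cdx1.S correlated at 0.32, and at 0.03 once group means were removed, so they do not give the same profile of the gene.

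Sp5l.S, the Sp-family gene, was read by 3 probe sets. The second had 123, 195, 113 and 130 in foxD5-injected pools 1 to 4 without Noggin, against 49.6, 106, 93.4 and 38.3 in uninjected siblings. In Noggin it had 118, 134, 97.5 and 176 (foxD5-injected) against 55.6, 32.3, 81.4 and 82.5 (uninjected). Within each culture all injected pools lay above all uninjected ones. The change was 0.93 ± 0.16 over both cultures, or 1.91-fold, and was above 0 in 8 of 8 pairs, from 0.23 in pair 3 in Noggin to 1.61 in pair 2 in Noggin.

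The third sp5l.S probe set had 124, 134, 89.9 and 175 in foxD5-injected pools without Noggin, against 36.7, 103, 58.0 and 55.4 in uninjected siblings. In Noggin it had 157, 125, 89.5 and 154 (foxD5-injected) against 40.3, 35.2, 44.8 and 81.9 (uninjected). Its groups did not overlap in Noggin and overlapped without it, where uninjected pool 2 exceeded injected pool 3. The change was 1.04 ± 0.15 over both cultures, or 2.06-fold, and 8 of 8 pairs were above 0, from 0.48 to 1.54.

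The first sp5l.S probe set, the one with the highest mean level, moved least. It had 108, 146, 177 and 190 in foxD5-injected pools without Noggin, against 69.4, 128, 118 and 111 in uninjected siblings. In Noggin it had 220, 246, 66.2 and 172 (foxD5-injected) against 149, 62.5, 111 and 133 (uninjected). The groups overlapped in both cultures, and injected pool 3 in Noggin was lower than its sibling. Its change was 0.49 ± 0.19 over both cultures and 0.46 ± 0.26 in Noggin, and without pair 2 in Noggin these were 0.29 and 0.07. Without pair 3 in Noggin the change in Noggin was 0.81. Over the 16 arrays the second and the third probe set correlated at 0.87, the first with the second at 0.63 and the first with the third at 0.68. The size given for sp5l.S therefore differs with the probe set read.

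**Figure D2:**
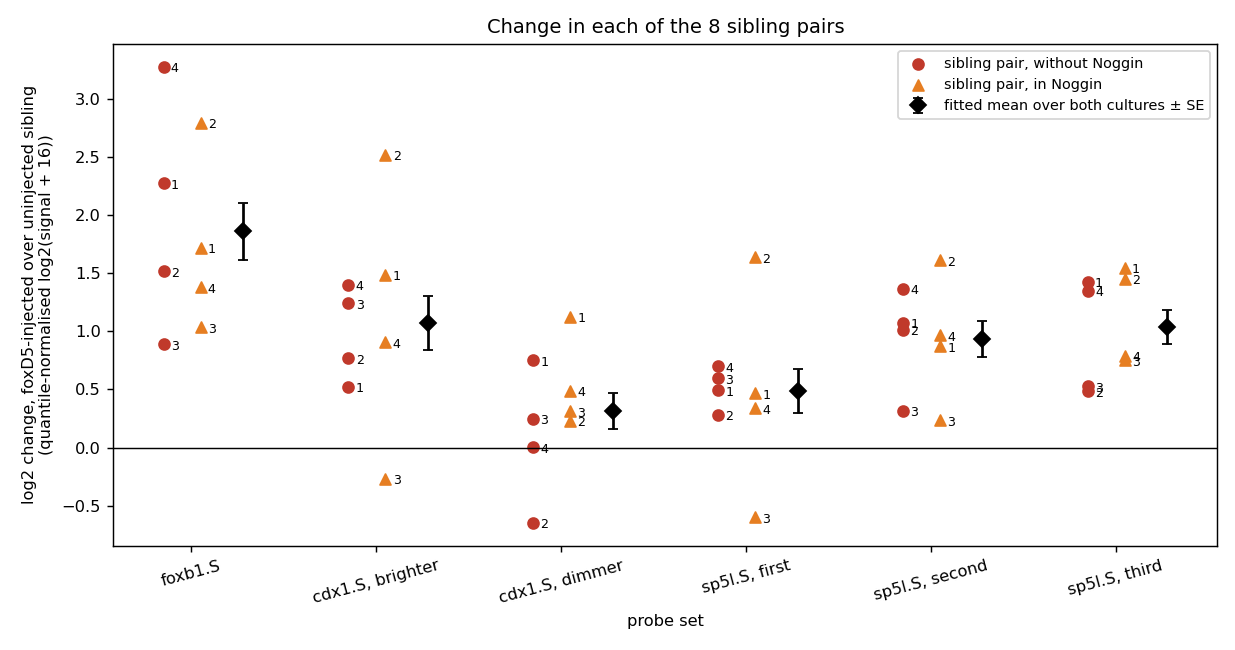
Log2 change of each foxD5-injected pool over its uninjected sibling for the 6 probe sets, on quantile-normalised log2(signal + 16), with circles for pairs without Noggin, triangles for pairs in Noggin and black diamonds for the fitted mean ± SE. Foxb1.S spreads from 0.89 to 3.28, and pair 3 in Noggin is the pair below 0 for the brighter cdx1.S and first sp5l.S probe sets.

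The threshold of an adjusted p of 0.05, by which genes of these arrays were called, divides the 6 probe sets. Over both cultures foxb1.S, the brighter cdx1.S and the second and the third sp5l.S probe set lay inside it, 4 of 6. The first sp5l.S and the dimmer cdx1.S probe sets lay outside. The brighter cdx1.S probe set, at 1.07 ± 0.24, was nearest to the threshold from the inside, and the first sp5l.S probe set, at 0.49 ± 0.19, nearest from the outside. Of all probe sets, 0.884% were called higher over both cultures and 0.491% lower, and with 1 probe set a gene these shares were 0.969% and 0.544%. Foxb1.S alone of the 6 was inside without Noggin, where 0.116% of all probe sets were called higher, and the third sp5l.S probe set alone in Noggin, where 0.239% were. Groups did not overlap, with injected above uninjected, for 3 of the 6 without Noggin (1.48% of all probe sets), for 3 in Noggin (1.19%) and for 2 in both cultures (0.181%). Those in both were foxb1.S and the second sp5l.S probe set. As the genes were selected on this contrast, nothing is read from these counts.

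Noggin itself was not used to choose the genes. In foxD5-injected caps foxb1.S was higher in Noggin by 0.59 ± 0.38 (95% interval -0.20 to 1.39, limma adjusted p = 0.575), with 137 ± 37.7 in Noggin against 93.7 ± 46.1 without it. In uninjected caps it was higher in Noggin by 0.85 ± 0.38 (interval 0.06 to 1.65), the largest of the 12 Noggin differences of these probe sets. That difference had an unadjusted p of 0.0373 from the limma fit and an adjusted p of 0.589, and did not pass.

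For cdx1.S the brighter probe set differed by 0.17 ± 0.43 between injected caps in Noggin and without it (limma adjusted p = 0.927), and by -0.005 ± 0.43 between uninjected caps (interval -0.91 to 0.90, adjusted p = 0.999). The dimmer probe set differed by 0.47 ± 0.26 in injected caps (interval -0.06 to 1.00, adjusted p = 0.486) and by 0.02 ± 0.26 in uninjected caps. None of the 6 sp5l.S differences was larger than 0.14 in either direction, with standard errors of 0.26 to 0.33 and adjusted p of 0.931 to 0.983. None of the 12 Noggin differences passed. The limma fit called 0.129% of all probe sets for Noggin in injected caps and 0.00646% in uninjected caps, with 1825 and 1275 probe sets at an unadjusted p under 0.05. Pairs in Noggin and pairs without it are different embryos, and the labels do not link clutches between the cultures. Clutch and Noggin therefore cannot be told apart. Labelled stages also differ, reaching 13 in injected pools without Noggin and 12.5 in Noggin, and uninjected pools without Noggin have no labelled stage. The part of stage in these differences was not tested.

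The difference between the foxD5 change in Noggin and that without Noggin was also tested. For foxb1.S it was -0.26 ± 0.49 (interval -1.32 to 0.80, limma adjusted p = 0.987). For the brighter cdx1.S probe set it was 0.18 ± 0.47 (-0.85 to 1.2) and for the dimmer 0.45 ± 0.31 (-0.22 to 1.12). For the first, the second and the third sp5l.S probe set it was -0.06 ± 0.38, -0.02 ± 0.31 and 0.19 ± 0.29. None passed, with adjusted p from 0.935 to 0.997, and none of all probe sets did (0%), although 765 had an unadjusted p under 0.05 in limma. Each of the 6 intervals was wider than the mean foxD5 change of its probe set, so the tests do not show that the changes were alike in both cultures.

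**Figure D3:**
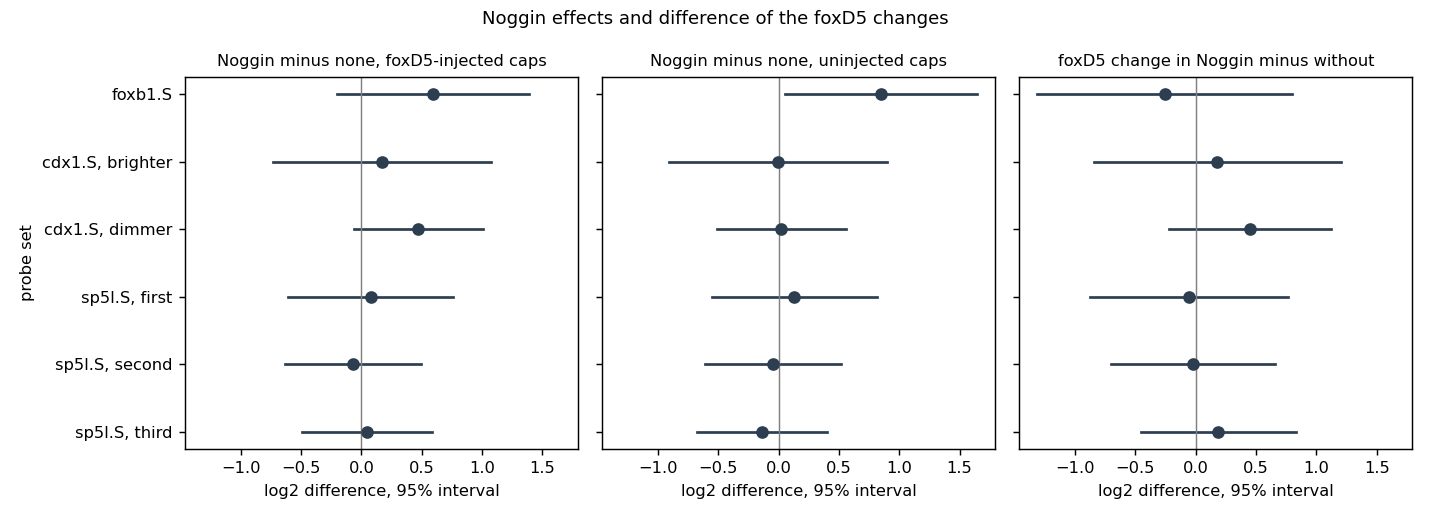
Log2 differences with 95% intervals for Noggin in foxD5-injected caps, for Noggin in uninjected caps, and for the foxD5 change in Noggin minus that without Noggin, 1 row a probe set. The interval of foxb1.S in uninjected caps is the one that lies above 0, at 0.06 to 1.65 before adjustment.

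Besides the 3 genes, the list of their relatives held 2 measured genes, cdx4.L and sp5.S, and neither passed the test. It held no other measured forkhead gene to set beside foxb1.S. Forkhead genes that did pass, in either direction, are given with the cell type markers further on. Cdx4.L, another caudal-type gene, had 13.3 and 23.7 in foxD5-injected caps without and with Noggin, against 9.86 and 6.93 in uninjected caps (means of 4 arrays). Its change was 0.46 ± 0.23 (limma adjusted p = 0.472), higher in 6 of 8 pairs. Sp5.S, another Sp-family gene, had 4.34 and 2.74 in injected caps, against 14.6 and 7.09 in uninjected caps. Its change was -0.34 ± 0.15 (adjusted p = 0.422), higher in 2 of 8 pairs, with a sign opposite to that of sp5l.S.

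All gene lists used from here on were chosen with earlier results of these data known. Their counts are therefore a description and no test of a list. With 1 probe set a gene, 0.969% of all genes were called higher over both cultures and 0.544% lower. Among 23 other genes of the posterior body and tailbud, 2 rose and 0 fell after foxD5 over both cultures, and 21 did not pass. Fgf8.L, the gene of an FGF ligand made in the posterior embryo, averaged 464 ± 152 in foxD5-injected caps against 111 ± 53.8 in uninjected caps, and in Noggin 571 ± 57.7 in injected against 175 ± 96.1 in uninjected caps (SD, n = 4 each). It rose by 1.85 ± 0.19 (limma adjusted p = 0.00068), in 8 of 8 pairs, while its other probe sets, at 0.50 ± 0.13 and 0.26 ± 0.14, did not pass (adjusted p = 0.0997 and 0.498). Tbxt.S, the T-box gene Brachyury of mesoderm and tailbud, averaged 27.6 ± 23.2 in injected against 8.09 ± 6.84 in uninjected caps, and 21.8 ± 4.05 in injected against 9.76 ± 4.72 in uninjected caps in Noggin. It rose by 0.65 ± 0.13 (adjusted p = 0.0336), in 8 of 8 pairs. The median change of the 23 was 0.17, beside -0.003 over all genes, and 15 of them were above 0. For 14 of the 23 all 4 group means were under 16.

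None of 21 hox genes passed, at a median of -0.07 with 5 above 0. In mouse, hox genes are among the targets of Cdx factors. Hoxa3.S had 21.7 ± 6.50 in injected against 18.4 ± 4.29 in uninjected caps, and 42.7 ± 39.8 in injected against 17.1 ± 16.7 in uninjected caps in Noggin. Its change was 0.45 ± 0.12 (limma adjusted p = 0.115), and hoxa2.S had 0.41 ± 0.14 (adjusted p = 0.275). At an unadjusted p under 0.05 in limma there were 2 of 21 hox genes, beside 1792 of all 15491 probe sets, a similar share, and 13 of the 21 had all 4 group means under 16, where changes are compressed.

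Of 24 genes of anterior neural tissue 1 fell, 0 rose and 23 did not pass, with a median of -0.03. Lhx5.S, a LIM homeodomain gene of the anterior neural plate, averaged 117 ± 37.6 in injected against 248 ± 50.1 in uninjected caps, and 118 ± 27.2 in injected against 224 ± 81.0 in uninjected caps in Noggin. Its change was -0.91 ± 0.14 (limma adjusted p = 0.00762), lower in 8 of 8 pairs, and its other probe set also fell, by 0.86 on the log2 scale.

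Of 22 other genes known as targets of canonical Wnt signals, 3 rose, 0 fell and 19 did not pass, with a median of 0.22 and 16 above 0. Vegt.L, a T-box gene that acts in germ layer formation, rose by 1.72 ± 0.19 (limma adjusted p = 0.00091). Its group means were 597 and 963 in injected caps without and with Noggin, against 176 and 323 in uninjected caps. Ccnd1.L, the cyclin D1 gene, rose by 0.67 ± 0.13 (adjusted p = 0.0236), and tbxt.S was the other. Of 14 Wnt ligand genes 1 rose and 13 did not pass, at a median of 0.05. Wnt11b.L, a ligand with a role in gastrulation movements, rose by 0.95 ± 0.18 (adjusted p = 0.0259) and was above 0 in 7 of 8 pairs.

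Of 16 FGF ligand and feedback genes, 5 rose, 0 fell and 11 did not pass, with a median of 0.22 and 14 above 0. Besides fgf8.L these were egr1.L, an immediate early gene of the MAP kinase pathway, fgf20.L, another ligand, and dusp1.S and spry2.S, which encode a MAP kinase phosphatase and a Sprouty inhibitor. Egr1.L rose by 2.26 ± 0.41 (limma adjusted p = 0.0203) and was above 0 in 7 of 8 pairs, with 613 ± 330 in injected against 257 ± 354 in uninjected caps and 641 ± 284 in injected against 114 ± 102 in uninjected caps in Noggin. Fgf20.L rose by 0.73 ± 0.15, dusp1.S by 0.77 ± 0.14 and spry2.S by 0.72 ± 0.14, with adjusted p of 0.0389, 0.0193 and 0.0229. Dusp1.L had the opposite sign, at -0.37 ± 0.12 (adjusted p = 0.228), and was lower in 8 of 8 pairs. It was the brighter copy, at 892 in injected against 1166 in uninjected caps without Noggin. Dusp1.S had 89.5 against 47.4 there. Of 18 genes of retinoic acid synthesis, breakdown and reception none passed in limma, at a median of 0.02, with 3 of 18 at an unadjusted p under 0.05, beside 1792 of 15491 probe sets. The nearest were cyp26a1.L, which encodes an enzyme that breaks down retinoic acid, at 0.55 ± 0.14 (adjusted p = 0.102), and rxra.L, a retinoid receptor gene, at 0.33 ± 0.12 (adjusted p = 0.256). A dimmer rxra.L probe set had the opposite sign, at -0.21 ± 0.17.

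**Figure D4:**
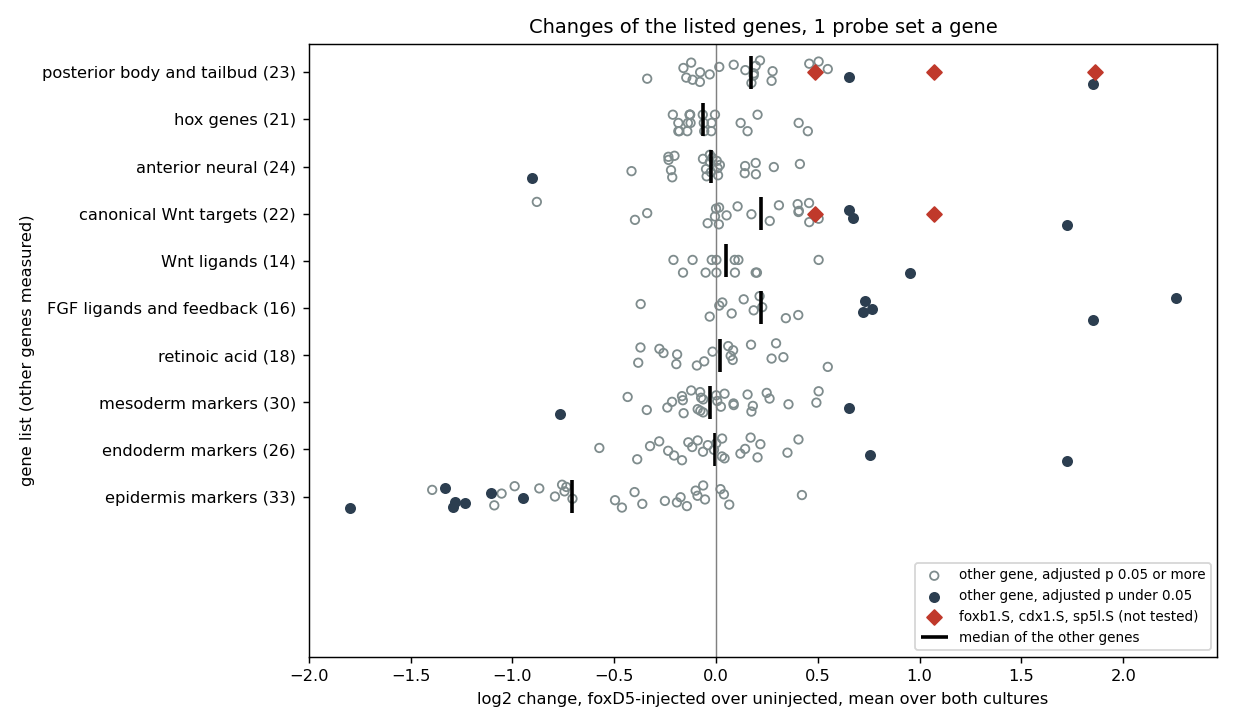
Log2 change after foxD5 over both cultures for the genes of 10 lists, 1 probe set a gene, with filled points past the adjusted p of 0.05, open points not past it, red diamonds for foxb1.S, cdx1.S and sp5l.S, and black bars for the median of the other genes. The epidermis markers lie lowest, at a median of -0.71, and FGF ligand and feedback genes have 5 of 16 past the threshold. Of all genes 0.969% were called higher, and the lists were chosen with earlier results of these data known.

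Markers of other cell types, pool size, stage and RNA measures were set beside the changes. Of 33 epidermis markers 7 fell and 0 rose, at a median of -0.71: foxi1.L, foxi4.2.L, tfap2a.L, klf17.L, grhl3.L, msx1.L and gata2.L, with changes from -1.80 ± 0.20 for foxi1.L to -0.95 ± 0.12 for grhl3.L. A dimmer probe set of foxi4.2.L, at 0.22 ± 0.12, did not pass. Most of these are transcription factor genes of the non-neural ectoderm. The summed epidermis signal had a lowest, median and highest value of 10340, 11700 and 13240 in foxD5-injected pools against 11980, 17370 and 29580 in uninjected pools. In Noggin it had 8774, 11400 and 17300 in injected against 9629, 13890 and 33680 in uninjected pools. The brightest gene in the sum, krt70.S, averaged 5262 in injected and 5722 in uninjected pools without Noggin. It did not pass on the probe set summed, while another of its probe sets fell by 0.59 on the log2 scale and passed. The 3 pairs with the largest drop in the epidermis sum were pair 1 without Noggin (log2 ratio of injected to uninjected -1.49), pair 2 in Noggin (-0.96) and pair 4 without Noggin (-0.72), and they also had the 3 largest changes of foxb1.S, at 2.28, 2.79 and 3.28. Both measures are taken from the same injected and uninjected arrays. The other genes did not all follow. In pair 1 without Noggin the brighter cdx1.S probe set changed by 0.525 and the dimmer by 0.751. The first, the second and the third sp5l.S probe set changed there by 0.492, 1.074 and 1.429. In pair 3 without Noggin, where the sums were 12880 in both siblings, foxb1.S had its smallest change, 0.89. In that pair the brighter cdx1.S probe set changed by 1.24 and the dimmer by 0.25, and the first, the second and the third sp5l.S probe set by 0.60, 0.32 and 0.53.

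Of 30 mesoderm markers 1 rose (tbxt.S), 1 fell (foxf1.L, a forkhead gene of lateral mesoderm, by 0.77 on the log2 scale) and 28 did not pass. Their sums had a lowest, median and highest value of 267, 268 and 653 in foxD5-injected pools against 167, 313 and 638 in uninjected pools. In Noggin these were 184, 313 and 403 in injected against 252, 310 and 394 in uninjected pools. The sums overlapped, 21 of the 30 had all group means under 16, and none had a signal of 0 on any array.

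Of 26 endoderm markers 2 rose and 24 did not pass. The 2 were vegt.L and foxa4.L, the second a forkhead gene of the organizer and floor plate at 0.76 ± 0.11. Foxa4.L averaged 14.3 and 16.2 in injected caps without and with Noggin, against 2.43 and 3.34 in uninjected caps. These means lay below the highest value of each reporter probe set. Vegt.L and foxa4.L were not in the list of mesoderm markers, so the mesoderm counts and sums leave them out. Their rise is not read as a sign of endoderm. The sums of all 26 were higher in the injected pool in 8 of 8 pairs, with a lowest, median and highest value of 830, 965 and 1223 in injected against 432, 546 and 973 in uninjected pools. In Noggin these were 807, 1283 and 1858 in injected against 512, 656 and 1019 in uninjected pools. The vegt genes were then set apart because vegt.L had risen, so the sums without them are chosen on the change itself. The sums of the other 24 had a lowest, median and highest value of 256, 354 and 567 in injected against 333, 365 and 695 in uninjected pools. In Noggin these were 231, 279 and 510 in injected against 319, 360 and 472 in uninjected pools. The part of other cell types in the changes of foxb1.S, cdx1.S and sp5l.S was not tested.

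Pool size differed most between siblings in pair 1 without Noggin, with 171 injected and 45 uninjected caps. The changes of that pair are given above. In Noggin the injected pools carried a later labelled stage than their siblings except in pair 1, where both are labelled 11.5 to 12.5. In that pair foxb1.S changed by 1.72, the brighter cdx1.S probe set by 1.49 and the dimmer by 1.12. The first, the second and the third sp5l.S probe set changed by 0.47, 0.87 and 1.54 there. The labelled stage of the injected pool began at 11.5 in pairs 1 and 4 without Noggin and pairs 1 and 2 in Noggin. In the other pairs, 2 and 3 without Noggin and 3 and 4 in Noggin, it began at 12 or later. Foxb1.S changed by 2.28, 3.28, 1.72 and 2.79 in the former and by 1.52, 0.89, 1.04 and 1.38 in the latter. The third sp5l.S probe set changed by 1.35 to 1.54 in the former and 0.48 to 0.79 in the latter. On the remaining probe sets these changes overlapped. The labels give ranges, and the order depends on which end is read. The range of injected pool 1 without Noggin ended at 13, as in pools 2 and 3 without Noggin. In all other injected pools it ended at 12.5. Divided by that end, the changes of foxb1.S and of the third sp5l.S probe set overlapped too. The log2 ratio of 3′ to 5′ actin signals, a measure of RNA integrity, had medians of 0.32 in injected and 0.58 in uninjected pools, and of -0.41 in injected and -0.01 in uninjected pools in Noggin. That of Gapd had medians of 1.57 in injected and 1.36 in uninjected pools, and 1.46 in injected and 1.3 in uninjected pools in Noggin. The part of pool size, of stage and of RNA integrity in the changes was not tested.

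Which of the 3 genes had similar profiles depended on the probe set read, and this was not tested. The brighter and dimmer cdx1.S probe sets also differed in profile, as did the first sp5l.S probe set from the second and the third, with the correlations given above. Foxb1.S correlated over the 16 arrays at 0.85 with the second and 0.87 with the third sp5l.S probe set, but at 0.65 with both the first sp5l.S and the brighter cdx1.S probe set. The brighter cdx1.S probe set correlated best with the first sp5l.S probe set, at 0.85. These values describe arrays that include the injected and uninjected groups, so the group difference is part of each. With group means removed the same values were 0.76, 0.79, 0.55, 0.25 and 0.81.

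The changes within pairs, which share arrays, are given as a description only. They set the probe sets apart less clearly. Over 8 pairs foxb1.S and the second sp5l.S probe set had a Pearson correlation of 0.88 and a Spearman correlation of 0.88, and 0.82 without the 2 pairs farthest from the median. The brighter cdx1.S and first sp5l.S probe sets had 0.94 and 0.74, and 0.55 without pairs 2 and 3 in Noggin. In the pairs without Noggin alone their Pearson correlation was 0.73. The brighter cdx1.S and second sp5l.S probe sets had 0.68, and -0.14 without the 2 farthest pairs. Foxb1.S had a Pearson correlation of 0.74 with the third sp5l.S probe set and of 0.64 with the first. With the brighter cdx1.S probe set foxb1.S had 0.55 over 8 pairs, and 0.10 without the 2 farthest pairs. In the 4 pairs in Noggin alone it had 0.95 with the brighter cdx1.S and 0.97 with the first sp5l.S probe set. Without Noggin these values were 0.18 and 0.46, also over 4 pairs. The dimmer cdx1.S probe set had -0.05 with foxb1.S over 8 pairs. It had -0.005, -0.12 and 0.60 with the first, the second and the third sp5l.S probe set.

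**Figure D5:**
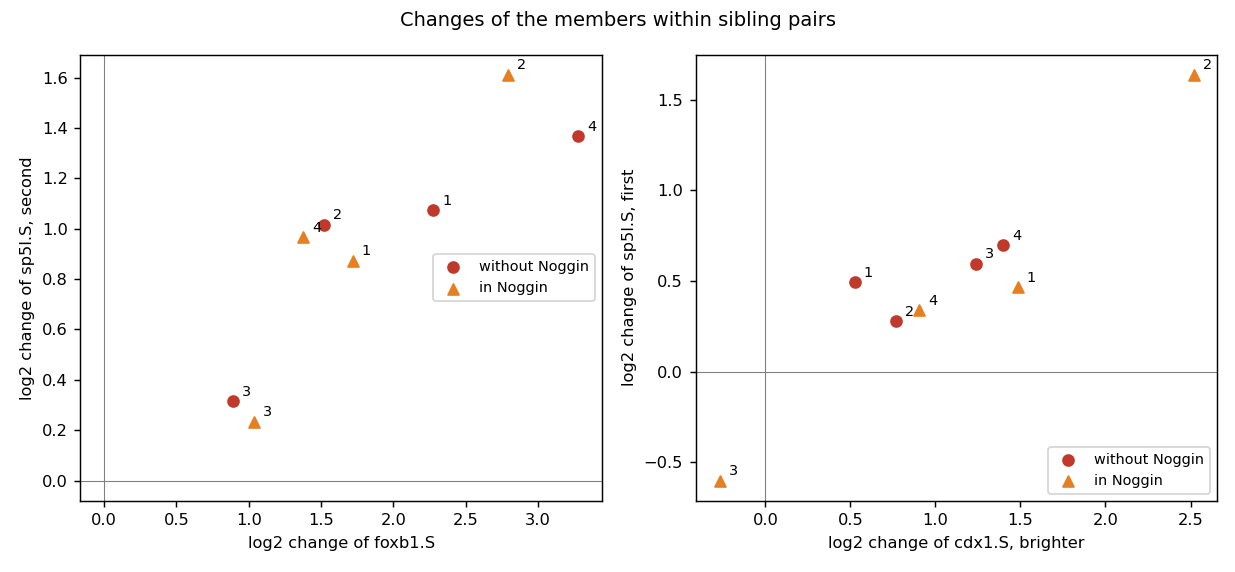
Log2 change within each sibling pair of foxb1.S against the second sp5l.S probe set (left) and of the brighter cdx1.S against the first sp5l.S probe set (right), with circles without Noggin, triangles in Noggin and digits for the replicate number. The left points spread along a line, while pairs 2 and 3 in Noggin set the ends of the right one.

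By correlation over the 16 arrays with genes at a mean log2 value of at least 6, the 5 genes with the profile nearest to foxb1.S were nradd.L at 0.96, fgf8.L at 0.96, vegt.L at 0.91, sesn1.L at 0.90 and epha2.L at 0.88. The changes of nradd.L, sesn1.L and epha2.L after foxD5 were 1.75 ± 0.14, 1.08 ± 0.12 and 0.82 ± 0.12, given as a description, since likeness to foxb1.S over injected and uninjected arrays favours genes that move with it. Nradd.L is a gene of the neurotrophin receptor family, sesn1.L encodes a stress-response protein and epha2.L an ephrin receptor. The nearest to the brighter cdx1.S probe set were the first probe set of sp5l.S at 0.85, lims1.L at 0.85, xmc.L at 0.84, pou2f1.S at 0.81 and dynll1.S at 0.80. The change of pou2f1.S, a POU-domain factor gene, was 1.07 ± 0.13, and those of the other 3 ranged from 0.20 to 0.77.

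The nearest to the first sp5l.S probe set were dynll1.S, ptp4a1.S, atg16l1.L, srsf2.L and prickle1.S, at 0.77 to 0.75 (0.745 for the last), and their changes after foxD5 ranged from 0.03 to 0.64. The second and the third sp5l.S probe set, looked at outside the rule for named genes, were nearest to fgf8.L, at 0.89 and 0.90, and foxb1.S was among the nearest 3 of each.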

How the data were processed

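Total RNA from 16 cap pools was hybridised to single-colour Affymetrix Xenopus arrays. The deposited values are intensity, 1 linear signal per probe set, whose mean after trimming 2% at each end is 150.02 in all 16 columns, a common scale set by the authors. The software that made them is not given in the sources used here. Values were transformed as log2(signal + 16) and quantile normalised. Of 15611 probe sets 120 controls were left out, and the other 15491 were tested without a filter on signal. In the platform annotation 9304 of them have 1 symbol, 195 several and 5992 none. Of these symbols 9227 matched, by Entrez identifier, the RefSeq table of assembly Xenopus_laevis_v10.1, which renamed 2.

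Tests used R 4.3.3 and limma 3.58.1, two-sided, with Benjamini-Hochberg adjustment over all probe sets and a threshold of 0.05. The foxD5 changes and their difference come from 1 model of the 16 arrays in which the sibling pair is a fixed block, because the labels name the uninjected pools as siblings. After group means were removed, siblings correlated at -0.115 in pair 1 without Noggin and at 0.203 to 0.67 in the others. Noggin effects had pair as a random block (correlation 0.364). The fits of the foxD5 changes and their difference were run on simulated data with normal noise and 1 pair correlation for all probe sets. The Noggin effects were not assessed there, and no outcome is given here.

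The genes followed and the lists were chosen with earlier results of these data known. Named were all probe sets of the 3 genes, their relatives, up to 8 genes of each list past the threshold (otherwise the 2 with the smallest p), and the 5 best correlated genes. A gene is represented by its probe set with the highest mean, except in the search for the best correlated genes. There its best correlated probe set was used, while the change given beside it is that of the probe set with the highest mean. The correlation and the change of such a gene may therefore come from different probe sets. Dusp1.L and the genes nearest to the second and the third sp5l.S probe set were named after their values were seen. Alternatives were another block, normalisation, pseudocount, filter or variance trend, and leaving out each pair.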

Additional observations from a re-analysis of the deposited data

Results flagged for a closer look

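Of 36 sets of 4 arrays checked, 6 probe sets in 4 groups and the pair changes of each culture, 1 held a value far from the others. The first sp5l.S probe set in uninjected caps without Noggin had a normalised log2 value of 6.403 in pool 1, with a gap to its neighbour of 0.949 of the group's range. That pool held 45 caps, the fewest of all. Its deposited signal was 69.4, against 111 to 128 in the other 3 pools. Chance flags about 1 of 20 sets, and how often it gives a gap as large as this one was not computed.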

How the results depend on the processing

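Of 282 foxD5 values of the 6 probe sets under 16 other settings, 275 moved by less than 1 SD between pairs and 7 moved further. In 1 of the 275 the sign changed, to -0.13 for the dimmer cdx1.S probe set without Noggin when pair 1 lacking Noggin was left out, against 0.09. With a pseudocount of 1, foxb1.S was at 2.81 over both cultures and 3.36 without Noggin, the brighter cdx1.S probe set at 1.99, at 1.89 without Noggin and at 2.1 in Noggin, and the dimmer at 1.21 in Noggin. With a pseudocount of 64, foxb1.S without Noggin was at 1.02. The size of these changes thus depends on how low signals are treated. None of 270 Noggin and difference tests of the 6 passed, and 40 changed sign. Both cdx1.S probe sets fell outside the filter on low values and have no value under it.

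Without the replicate block, 67 probe sets were called for foxD5 over both cultures in place of 213, 1 without Noggin in place of 37, 3 in Noggin in place of 49, and 2 for Noggin in uninjected caps in place of 1. A pseudocount of 1 gave 57, 0 and 1 for foxD5, and 0 for Noggin in uninjected and 1 in injected caps. In injected caps Noggin called 20, and 7 on values as deposited, 193 with a pseudocount of 64 (4 in uninjected caps), 96 with the filter and 62 with an intensity trend. The trend gave 92 without Noggin and 78 in Noggin for foxD5. Leaving out 1 pair gave 89 to 394 calls over both cultures (89 without pair 4 and 394 without pair 1, both lacking Noggin), 7 to 38 without Noggin, 5 to 59 in Noggin, and 0 to 2 and 0 to 19 for Noggin in uninjected and injected caps. The cause was not tested. The number of arrays limits the precision.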
